A study of Danio rerio with 10 samples.

Results

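The hox genes of zebrafish other than paralog group 10 were read in sorted ventral somite progenitors at 9 hours post-fertilization (hpf), in late gastrulation. They were all records of the deposited count table whose RefSeq symbol is hox, a cluster letter, a paralog number other than 10 and a copy letter. This gave 43 genes, 1 record each, among 14720 records. The 4 group 10 paralogs were left to side by side values. Of 49 hox genes in the RefSeq table, *hoxc11b* and *hoxc13b* had no record among those analysed.

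Both groups were wild type embryos of the AB strain, injected early with caged fluorescein-dextran (cFD), a tracer that light makes fluorescent. The control group carried cFD alone, and the spt_cMO group also carried a caged morpholino, an antisense oligonucleotide that light makes active, against *spadetail* (*tbx16*), a T-box factor of mesoderm progenitors. All embryos were lit at 360 nm through a diaphragm of 100 µm at 6 hpf, and fluorescent cells were sorted at 9 hpf. Each group had 5 libraries, described in the labels as biological replicates; how many embryos made up a library is not given in the sources used here. No morpholino was given to the control group, and what *spadetail* knockdown does and what any active morpholino does in these cells cannot be told apart. The sorted cells were those that the light spot reached and their progeny, not a population chosen by a marker.

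Hox genes encode homeodomain transcription factors that give cells their place along the head to tail axis. They lie in clusters, and genes at the 3′ end of a cluster (low paralog numbers) are switched on earlier and further forward than genes at the 5′ end (high numbers), an order known as collinearity. After a genome duplication in teleosts, zebrafish have 7 clusters, named by a letter for the ancestral cluster and an a or b for the copy: hoxaa, hoxab, hoxba, hoxbb, hoxca, hoxcb and hoxda. Mesoderm cells take up hox codes as they leave the gastrula's margin, so late gastrulation is a time at which the clusters are still being opened.

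Library totals ran from 2036973 to 9374914 counts, and 3 counts corresponded to between 0.32 and 1.47 CPM (read counts scaled to library size). The libraries were made by CEL-seq, in which a tag is a read from near the 3′ end of a transcript, so CPM is given with no correction for length. The counts are of reads, not of transcript molecules. Whether each record reaches the 3′ end of its transcript could not be checked here. Levels of different genes, copies and clusters are therefore compared as tags counted, and a low count need not mean low expression. The transcript of the target, *tbx16*, was at 386 CPM in control and 526 CPM in spt_cMO (edgeR adjusted p = 0.0897, with the block on replicate number 0.0172); a morpholino need not lower its target's transcript. Of 9 marker genes of the presomitic mesoderm none was at 0 and 8 were tested. *msgn1* was the most counted of them, at 5838 CPM in control, and *tbx6* was near the detection limit, at 2.11 CPM. Their summed level was 7370 to 9469 CPM in the control libraries and 3652 to 5276 CPM in the spt_cMO libraries. The difference in this sum mainly follows *msgn1*, which was at 2029 CPM in spt_cMO. Among these markers *msgn1*, *tbx16l*, *her1* and *aplnrb* fell (edgeR adjusted p = 0.00047, 0.00016, 0.0455 and 0.0019) and *tbxta* rose (edgeR adjusted p = 0.044). *her7* and *dlc* did not pass with or without the block. Of all tested records 0.974% were lower and 0.807% higher. The calls of *her1* and *tbxta* were lost without most single libraries.

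Of 43 hox genes 42 had at least 1 count, and 23 had enough counts to be tested (about 10 counts at the median depth, 2.55 CPM, in at least 5 libraries). The filter can be met by either group alone. *hoxa13b* met it in 5 spt_cMO libraries but in 1 control library, *hoxa2b* in 4 control libraries, and *hoxb13a* in 5 control but 2 spt_cMO libraries. The 5 most counted genes took 59.7% of all hox tags counted here. They were *hoxc8a*, *hoxb5b*, *hoxc3a*, *hoxb1b* and *hoxb7a*, each above 100 CPM over all libraries, and 15 genes were above 10 CPM.

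**Figure D1:**
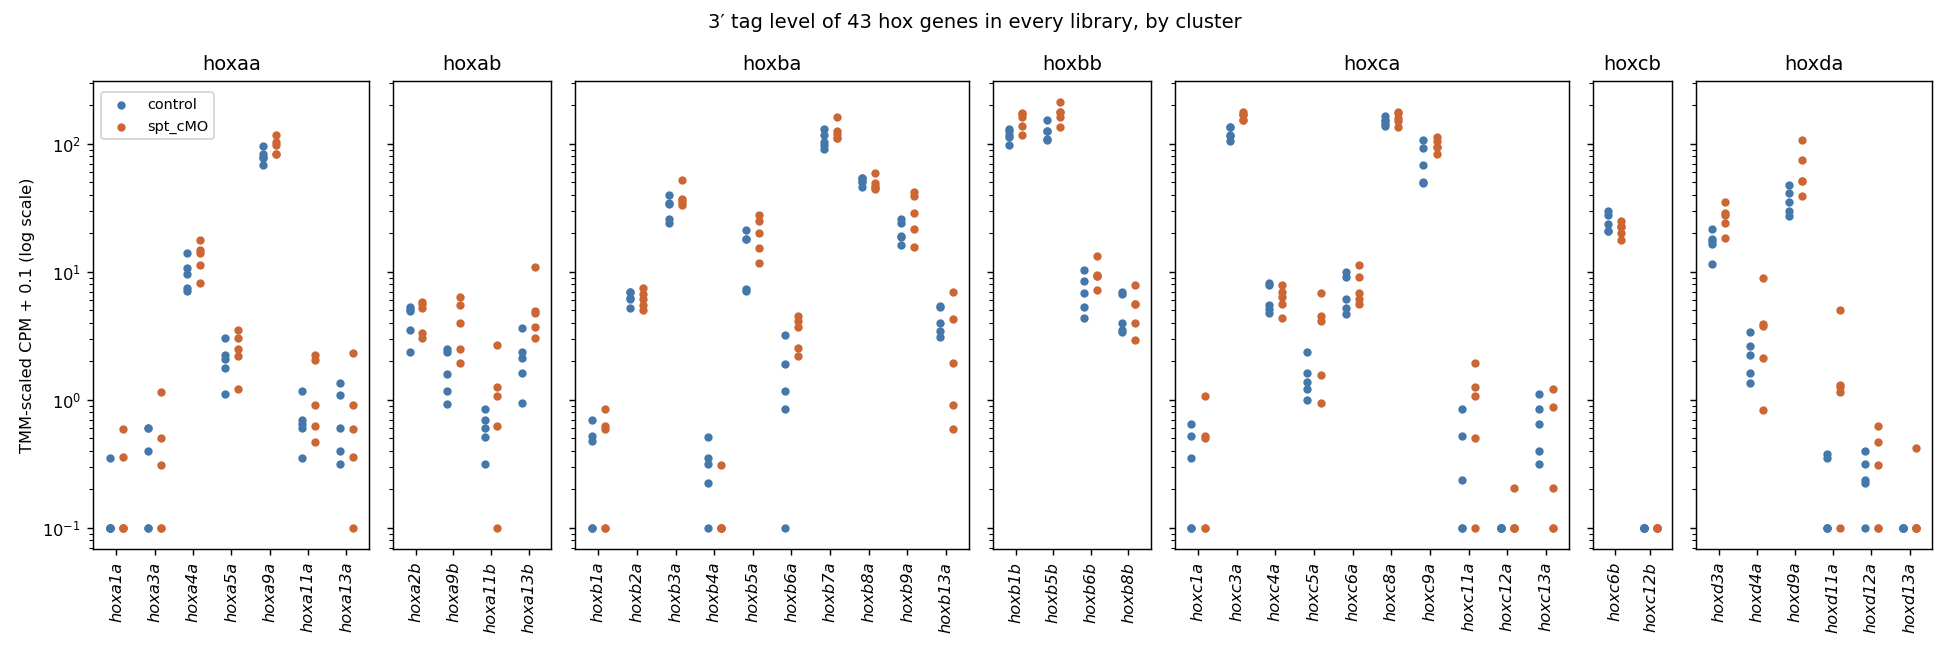
TMM-scaled CPM (plus 0.1, log axis) of the 43 hox genes in each library, with 1 panel per cluster and genes in order of paralog number from left to right. Among genes numbered 11 to 13, *hoxa13b* and *hoxb13a* have the highest means (3.71 and 3.50 CPM), and the genes above 100 CPM lie in hoxba, hoxbb and hoxca.

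Detection differed from cluster to cluster. The hoxbb cluster, with genes numbered 1, 5, 6 and 8, was the one in which every gene was tested (4 of 4). In hoxba 7 of 10 genes were tested, in hoxca 5 of 10, in hoxab 2 of 4, in hoxcb 1 of 2, in hoxda 2 of 6 and in hoxaa 2 of 7. By tags, hoxca held 34.3% of the hox CPM, hoxbb 25.4%, hoxba 22.0%, hoxaa 8.92%, hoxda 6.53%, hoxcb 1.97% and hoxab 0.991%. A single gene made up most of some of these. *hoxa9a* gave 85.1% of hoxaa, *hoxd9a* 66.0% of hoxda and *hoxc6b* all that was counted in hoxcb.

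Few tags came from the 5′ ends of the clusters. Of 12 genes numbered 11 to 13, which pattern the tail, the fins and other late, posterior parts, 2 were tested (*hoxa13b* and *hoxb13a*), and together the 12 gave 1.0% of the hox CPM. *hoxc12b* was at 0 in all 10 libraries, which allows up to 0.32 CPM in spt_cMO library 1, the deepest, and up to 1.47 CPM in spt_cMO library 2, the shallowest. *hoxc12a* had 1 count and *hoxd13a* 3 counts, all in spt_cMO library 1. The largest count in 1 library was 2 for *hoxd12a*, 6 for *hoxc13a*, 11 for *hoxc11a*, *hoxd11a* and *hoxa11b*, 20 for *hoxa11a* and 21 for *hoxa13a*. By contrast 4 of 5 genes numbered 9 were tested, and group 9 gave 21.6% of the hox CPM, more than any other paralog group.

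The 3′ end of the clusters was not uniformly detected either. *hoxb1b*, a patterning gene of the hindbrain that is expressed from gastrulation on, was at 135 CPM over all libraries, but the largest count in 1 library was 1 for *hoxa1a*, 4 for *hoxc1a* and 7 for *hoxb1a*, known from the fourth hindbrain segment. For *hoxb4a* it was 3 and for *hoxa3a* 4, although their neighbours *hoxb3a* and *hoxa4a* were tested. The untested genes with the largest count in 1 library were *hoxa9b* with 59, *hoxd4a* with 36, *hoxa5a* with 32, *hoxc5a* with 26 and *hoxb6a* with 25. For *hoxa9b*, *hoxd4a* and *hoxa5a* this was in spt_cMO library 1, the deepest. Closest to the filter were *hoxb6a* and *hoxd4a*, which met it in 1 control and 3 spt_cMO libraries each. Annotated spans overlap inside the clusters: *hoxc3a* overlaps *hoxc4a*, *hoxc5a*, *hoxc6a*, *hoxc8a* and *hoxc9a*, *hoxb3a* overlaps *hoxb4a*, *hoxb5a* and *hoxb6a*, and *hoxa3a*, *hoxb1b* and *hoxd3a* overlap their neighbours. How the authors assigned reads there, and by which strand, is not given in the sources used here, so the single values of these genes are uncertain.

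A pair of duplicated copies, a and b, was present for 9 genes, and 1 copy was usually far more counted than the other. The 3′ ends of these records were not checked, so the differences are in tags counted and need not be in transcripts. *hoxb1b* had 6165 counts over all libraries and *hoxb1a* 17, too few for a fold. *hoxa9a* was at 31.9 times that of *hoxa9b* (88.9 against 2.79 CPM). *hoxb8a* was at 49.9 CPM against 4.96 CPM for *hoxb8b*. *hoxb5b* was at 8.67 times *hoxb5a*, *hoxa13b* at 3.71 CPM against 0.704 CPM for *hoxa13a*, *hoxb6b* at 3.56 times *hoxb6a* and *hoxc6b* at 3.15 times *hoxc6a*. In each of these 7 pairs the same copy was higher in all 10 libraries. The leading copy lay in the b cluster for *hoxb1*, *hoxb5*, *hoxb6*, *hoxa13* and *hoxc6*, and in the a cluster for *hoxa9* and *hoxb8*. The copies of *hoxa11* were near the detection limit and at similar levels (0.874 and 0.773 CPM). The balance between copies was nearly the same in both groups for *hoxb5*, whose b copy gave 89.7% of the pair in control and 89.6% in spt_cMO, and for *hoxb8*, whose a copy gave 91.4% and 90.5%. For *hoxc6* the b copy gave 78.0% and 73.6%, for *hoxb6* the b copy 83.8% and 74.4%, and for *hoxa13* the b copy 75.8% and 87.7%. These shares are a description, and their difference between groups was not tested.

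The comparison of spt_cMO and control asked which of these genes differ when *spadetail* is targeted in somite progenitors. Among these, *hoxc3a* was called higher, and no tested gene was called lower. Of 23 tested genes 1 passed in the higher direction (4.35%, where 0.807% of all 6570 tested records did) and 0 in the lower (0.974% of all records), by edgeR's quasi-likelihood test at an adjusted p of 0.05. That fit took no account of replicate number, though same-numbered libraries varied together. At an unadjusted p under 0.05, 8 were higher (4.6% of all records were) and 0 lower (4.84% of all records were), and DESeq2 called 0 lower (1.31% of all records). Taking replicate number as a block gave 5 higher (21.7%, against 1.34% of all records) and 0 lower (1.42% of all records): *hoxc3a*, *hoxb5b*, *hoxd3a*, *hoxd9a* and *hoxa13b*. DESeq2 called the same 5 higher (1.25% of all records). With equal depth in all libraries, where *hoxa13b* was not tested, 1 was higher, *hoxb5b* (0.779%). Of the 5, *hoxa13b* met the filter in 5 spt_cMO libraries but in 1 control library, which favoured a higher value. The annotated spans of *hoxc3a*, *hoxb5b* and *hoxd3a* overlap those of neighbours, so their single values are uncertain. With no filter on low counts, 6 of the 42 hox genes with a count were higher (0.577% of all 13008 records), among them the untested *hoxa9b* and *hoxd11a*. Among the 23, *hoxc3a* was the 1 gene whose groups did not overlap; 1.43% of all tested records were higher without overlap and 1.63% lower.

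The median log2 fold change of the 23 tested genes was 0.27, where that of all tested records was 0.001. A positive value was found in 19 of them (82.6%, against 50.3% of all tested records). Counted over every hox gene with a count, so that the filter plays no part, the mean CPM was higher in spt_cMO in 35 of 42 (83.3%, against 50.7% of all 13008 records with a count). Some of these directions rest on at most 3 counts in any library: *hoxa1a*, *hoxc12a*, *hoxd12a* and *hoxd13a*, counted as higher, and *hoxb4a*, counted as lower. The genes come from the same libraries and are not independent. In sorted cells counted in bulk, fewer cells of a type and less RNA per cell cannot be told apart. Of the 8 tested marker genes of the presomitic mesoderm 4 were lower and 1 higher, as given above (0.974% and 0.807% of all records). Their part in the hox values was not tested.

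**Figure D2:**
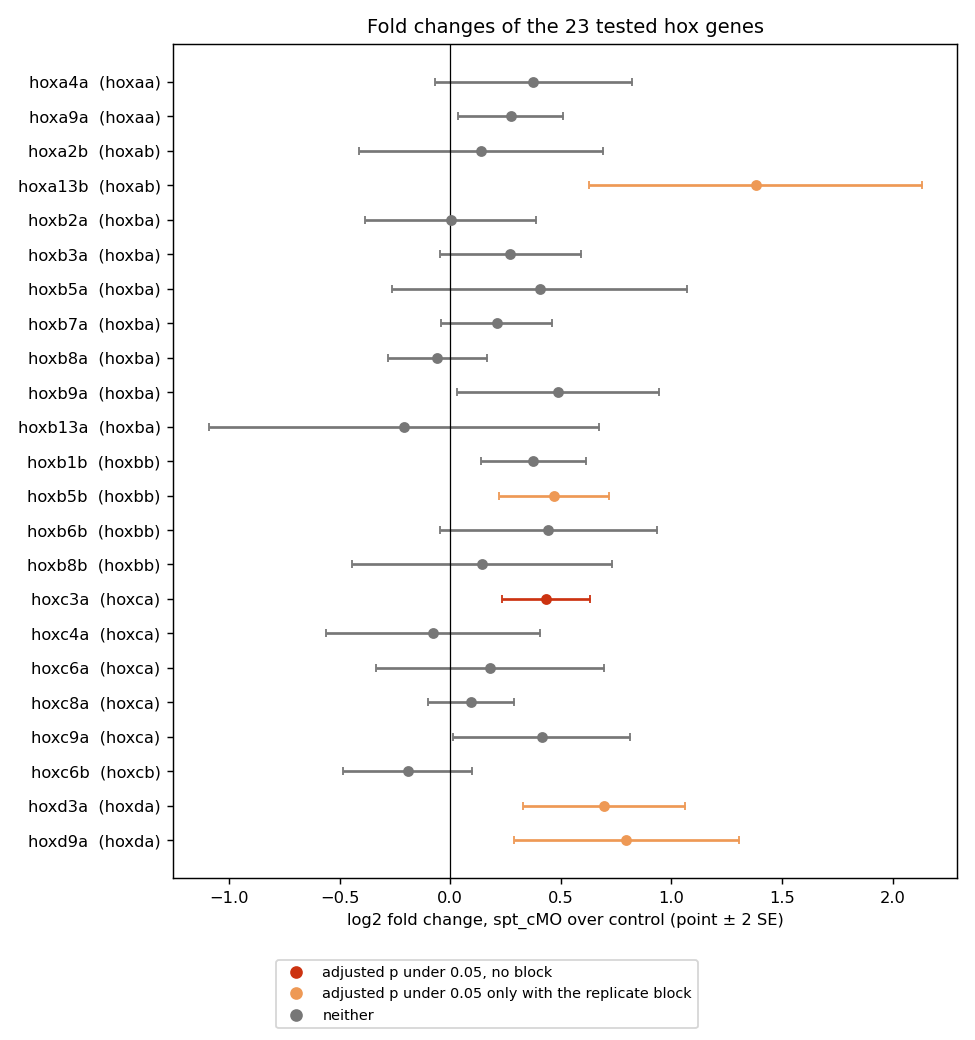
Log2 fold change of spt_cMO over control for the 23 tested hox genes, point and 2 standard errors to each side, ordered by cluster and paralog number. Points and standard errors are from the fit without the block. *hoxc3a* is the gene that passes without the block, and *hoxb5b*, *hoxd3a*, *hoxd9a* and *hoxa13b* pass with it.

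*hoxc3a* is a group 3 gene of the hoxca cluster, and mammals have lost their copy. Its annotated span overlaps other genes of the cluster, and how reads were assigned there is not given. Control libraries 1 to 5 were at 117, 136, 135, 105 and 116 CPM, and spt_cMO libraries 1 to 5 at 154.5, 168, 179, 170.1 and 152 CPM. All 5 spt_cMO libraries lay above all 5 control libraries. The mean rose from 122 CPM ± 13.4 (SD, n = 5) to 165 CPM ± 11.02 (SD, n = 5), a log2 fold change of 0.43 (SE 0.10) or 1.35-fold (edgeR adjusted p = 0.0249). The call was lost without control library 1, 4 or 5 or spt_cMO library 3 or 4 (adjusted p = 0.0638, 0.087, 0.0794, 0.0738 and 0.0712), with log2 fold changes between 0.39 and 0.48 over the 10 omissions. With the block it was kept (adjusted p = 0.00889).

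*hoxb5b*, a trunk gene of the hoxbb cluster, was the second most counted hox gene. It was at 154, 109.9, 126, 107 and 125 CPM in control libraries 1 to 5 and at 162, 176, 211, 135 and 177 CPM in spt_cMO libraries 1 to 5. Of the spt_cMO libraries 4 lay above every control library, and library 4 lay inside the control range. The mean was 124 CPM ± 18.5 in control and 172 CPM ± 27.6 in spt_cMO (SD, n = 5 each), or 0.47 (SE 0.12) as a log2 fold change. It missed the threshold without the block (edgeR adjusted p = 0.067) and passed with it (adjusted p = 0.0147).

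The other genes of hoxbb had positive values too. *hoxb1b* was at 117 CPM ± 12.7 and 153 CPM ± 24.0 (log2 fold change 0.37, SE 0.12, edgeR adjusted p = 0.172, with the block 0.0718). *hoxb6b* was at 6.98 CPM ± 2.42 and 9.64 CPM ± 2.21 (log2 fold change 0.44, SE 0.24), and *hoxb8b* at 4.80 CPM ± 1.78 and 5.12 CPM ± 1.90 (0.14, SE 0.29), and neither passed with or without the block.

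In hoxda both tested genes outside group 10 passed with the block. *hoxd3a*, at the 3′ end of the cluster, was at 17.4, 16.5, 17.8, 21.7 and 11.35 CPM in control and at 28.8, 24.0, 18.45, 35.2 and 27.75 CPM in spt_cMO. Again 4 spt_cMO libraries lay above the control range and 1, library 3, lay inside it. Its log2 fold change was 0.69 (SE 0.18; edgeR adjusted p = 0.0664, with the block 0.0174).

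*hoxd9a*, in the middle of the cluster, was at 35.3, 41.3, 30.01, 27.0 and 47.6 CPM in control and at 51.2, 107, 74.5, 38.9 and 51.5 CPM in spt_cMO. Library 4 lay inside the control range, and library 2 was the highest of all 10. The log2 fold change was 0.80 (SE 0.25; edgeR adjusted p = 0.225, with the block 0.032), and 0.55 without spt_cMO library 2 (adjusted p = 0.234). At the 5′ end of hoxda, the untested *hoxd11a* had 0, 2, 0, 0 and 2 counts in control libraries 1 to 5 and 11, 10, 0, 4 and 3 counts in spt_cMO libraries 1 to 5. With no filter on low counts, *hoxd11a* passed (edgeR adjusted p = 0.02). No fold is given for counts this low.

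*hoxa13b*, a gene of the distal fin and the tail in the hoxab cluster, had the highest log2 fold change of the tested genes at a low level. It was at 2.02, 2.25, 3.57, 0.851 and 1.52 CPM in control and at 4.88, 10.8, 2.95, 4.70 and 3.62 CPM in spt_cMO. Library 3 lay inside the control range and library 2 far above the rest. The log2 fold change was 1.38 (SE 0.38; edgeR adjusted p = 0.0801, with the block 0.0315), and 1.08 without spt_cMO library 2 (adjusted p = 0.163). Since it entered the test through the spt_cMO group, the filter itself favoured a higher value there.

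**Figure D3:**
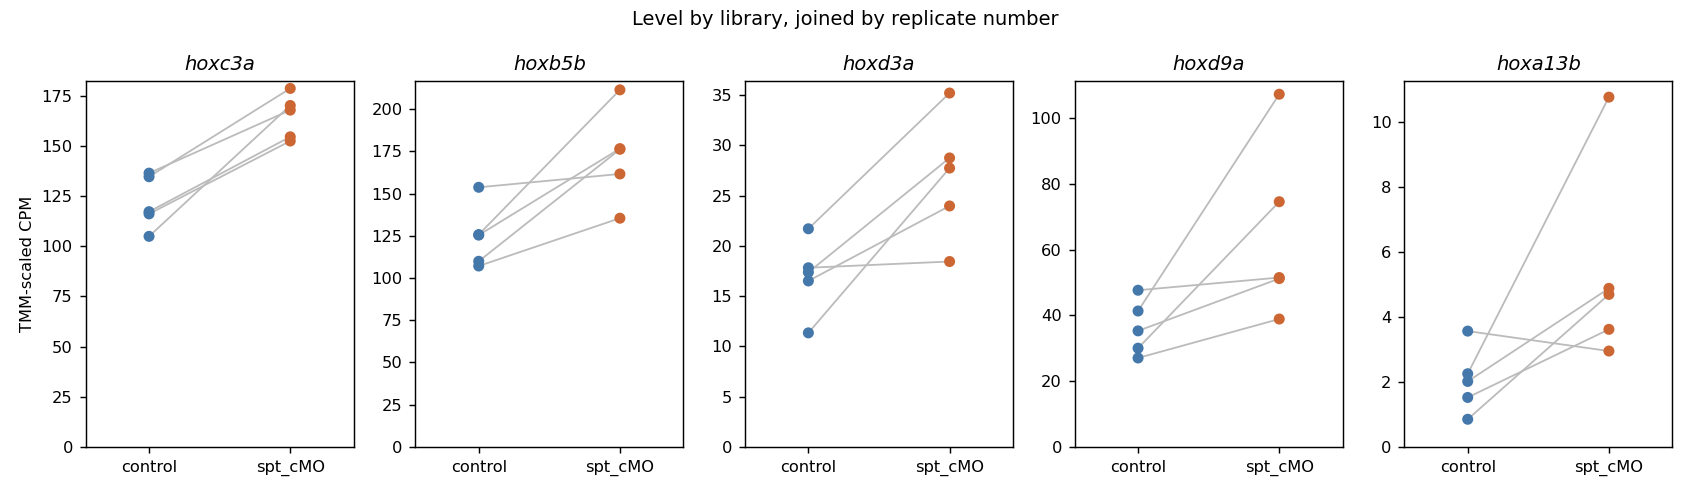
TMM-scaled CPM of *hoxc3a*, *hoxb5b*, *hoxd3a*, *hoxd9a* and *hoxa13b* in the 5 control and 5 spt_cMO libraries, with lines joining libraries of the same replicate number. The line goes up in 5 of 5 pairs for the first 4 genes and in 4 of 5 for *hoxa13b*.

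In the rest of hoxab, *hoxa2b*, a gene of the second pharyngeal arch and the hindbrain, was at 2.27, 5.26, 5.05, 3.405 and 4.845 CPM in control and at 5.09, 2.94, 5.53, 5.74 and 3.22 CPM in spt_cMO. The groups overlapped almost wholly (log2 fold change 0.14, SE 0.28, edgeR adjusted p = 0.95). The untested *hoxa9b* was at 2.27, 1.502, 2.38, 1.06 and 0.831 CPM in control and at 6.26, 5.38, 1.845, 3.91 and 2.41 CPM in spt_cMO. Its spt_cMO libraries lay above the control range except library 3. With no filter *hoxa9b* passed (edgeR adjusted p = 0.0211).

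In hoxca, the most counted cluster, *hoxc3a* was the 1 gene outside group 10 that passed. Whether it differed more than its neighbours was not tested. *hoxc8a*, a trunk gene and the most counted hox gene, was at 142, 155, 139, 149.8 and 164 CPM in control and at 175, 178, 151, 159 and 136 CPM in spt_cMO. The groups overlapped, with a log2 fold change of 0.09 (SE 0.10, edgeR adjusted p = 0.887), and 2 standard errors to each side reached from -0.10 to 0.29. *hoxc9a* was at 73.5 CPM ± 25.7 and 98.2 CPM ± 11.6 (log2 fold change 0.41, SE 0.20, edgeR adjusted p = 0.564), a value close to that of *hoxc3a* with a wider error. The untested *hoxc5a* was at 1.41 CPM in control and 3.51 CPM in spt_cMO. *hoxc6a* (log2 fold change 0.18, SE 0.26) and *hoxc4a* (-0.08, SE 0.24), both under 10 CPM, did not pass, and the sign of *hoxc4a* changed without control library 3 or 5 or spt_cMO library 1.

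Outside group 10, the tested genes of hoxba all missed the threshold in both fits. *hoxb7a*, its most counted gene, was at 98.8, 103.5, 118, 91.9 and 131 CPM in control and at 119, 126, 110.3, 112 and 162.5 CPM in spt_cMO, with 1 spt_cMO library above the control range (log2 fold change 0.21, SE 0.12, edgeR adjusted p = 0.697). *hoxb9a* had the highest value among these genes at 0.49 (SE 0.23), *hoxb5a* was at 0.40 (SE 0.33), *hoxb3a* at 0.27 (SE 0.16) and *hoxb2a* at 0.00 (SE 0.19). *hoxb8a* was at 50.9 CPM ± 3.28 in control and 48.9 CPM ± 6.16 in spt_cMO, with a log2 fold change of -0.06 (SE 0.11). *hoxb13a*, at the 5′ end, was at 5.29, 3.38, 3.86, 2.98 and 5.26 CPM in control and at 6.90, 0.489, 1.845, 4.17 and 0.804 CPM in spt_cMO, on both sides of the control range (-0.21, SE 0.44). Without spt_cMO library 1 its log2 fold change was -0.99 (edgeR adjusted p = 0.489).

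The remaining clusters held few tested genes. In hoxaa, *hoxa9a* was at 68.3, 95.5, 77.0, 79.0 and 82.6 CPM in control and at 104, 83.7, 83.0, 98.6 and 117 CPM in spt_cMO. Of these, 3 spt_cMO libraries lay above every control library (log2 fold change 0.27, SE 0.12, edgeR adjusted p = 0.463), and *hoxa4a* was at 9.71 CPM ± 2.77 and 13.1 CPM ± 3.64 (0.38, SE 0.22, edgeR adjusted p = 0.689). In hoxcb, *hoxc6b* was at 23.4, 27.8, 30.01, 20.6 and 20.9 CPM in control and at 20.2, 25.0, 17.7, 22.2 and 22.9 CPM in spt_cMO. It was one of 4 tested hox genes with a negative value (-0.19, SE 0.15, edgeR adjusted p = 0.799), and no spt_cMO library lay above the control range.

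Some genes varied together among the control libraries. *hoxb5a* was at 7.05, 17.9, 17.8, 7.24 and 21.2 CPM in control libraries 1 to 5, *hoxc9a* at 49.1, 107, 92.7, 50.4 and 68.4 CPM, and *hoxa4a* at 7.05, 13.9, 9.51, 7.45 and 10.7 CPM, genes named together after their values were seen. Control libraries 1 and 4 were the lowest in all 3. The same held for *meis2b*, *foxa3* and *cxcr4a*, which are not hox genes and were also picked after their values were seen. The pattern is thus not particular to hox genes. The mean *hoxb5a* level was 14.2 CPM ± 6.62 in control and 19.96 CPM ± 6.66 in spt_cMO, and it was higher in spt_cMO in 5 of 5 same-numbered pairs, without passing (edgeR adjusted p = 0.822, with the block 0.0881).

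Summed over the genes of a cluster, the CPM was higher in spt_cMO in 6 of 7 clusters. These sums are a description with no test. For hoxda the sum was 54.2, 60.3, 51.4, 51.5 and 60.6 CPM in control libraries 1 to 5 and 85.4, 145, 94.1, 79.3 and 82.5 CPM in spt_cMO, 1.75 times higher in the mean, and 1 library (spt_cMO 2) stood well above the rest. For hoxbb it was 253 CPM ± 19.0 and 340.2 CPM ± 47.5 (1.34 times) and for hoxca 361 CPM ± 42.2 and 442 CPM ± 13.7 (1.22 times). In hoxda, hoxbb and hoxca the groups did not overlap.

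For hoxab the sum was 8.31 CPM ± 2.38 and 14.9 CPM ± 4.15 (1.79 times), for hoxaa 93.7 CPM ± 12.98 and 115 CPM ± 12.4 (1.23 times) and for hoxba 238 CPM ± 24.9 and 276 CPM ± 27.8 (1.16 times), with overlap in each. For hoxcb, which is *hoxc6b*, it was 24.6 CPM ± 4.19 and 21.6 CPM ± 2.76 (0.879 times). Without spt_cMO library 2, the log2 ratio of hoxda was 0.62 in place of 0.81.

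**Figure D4:**
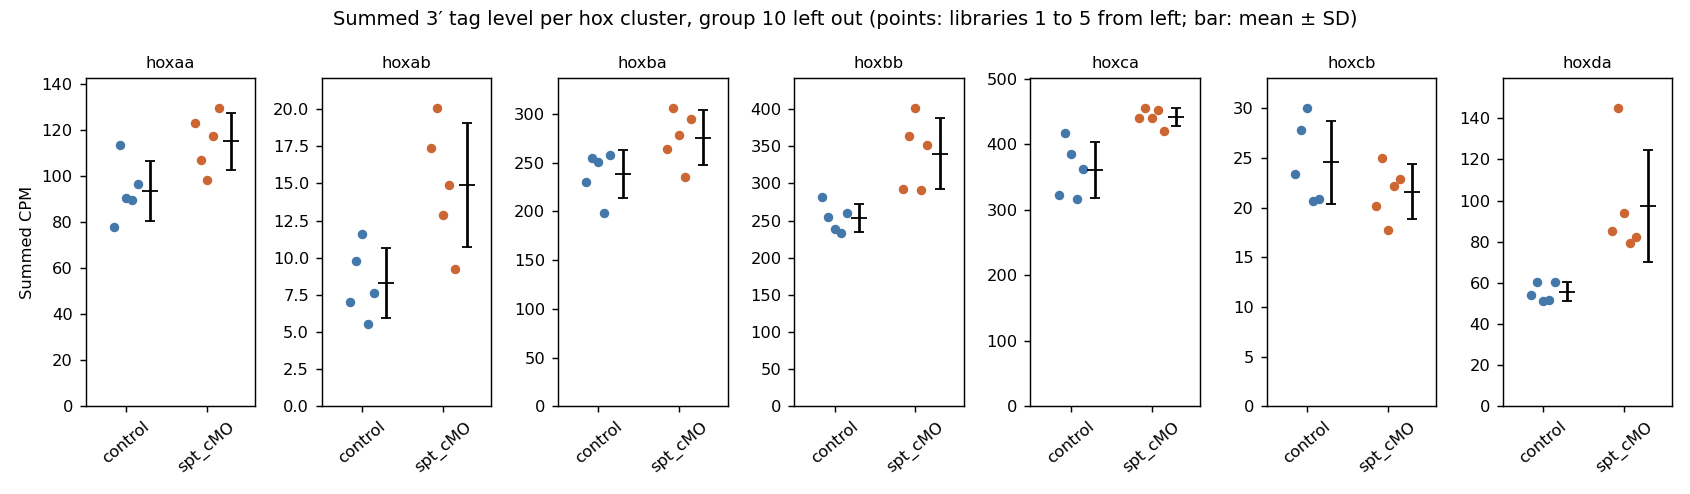
Summed TMM-scaled CPM of each hox cluster, group 10 left out, in each library (points, libraries 1 to 5 from left), with mean and SD. The hoxbb, hoxca and hoxda points do not overlap between groups, and hoxcb has the lower mean in spt_cMO.

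Read along the clusters, the difference did not run evenly with paralog number. Summed over the 4 genes of group 3, the CPM was 169, 194, 187, 151 and 154 in control and 218, 244, 234, 239.8 and 217 in spt_cMO, with no overlap (1.35 times). Most of the group 3 sum was *hoxc3a*, with means of 122 and 165 CPM where the group's means were 171 and 231 CPM. In group 5, mostly *hoxb5b*, the sum was 142 CPM ± 17.5 and 198 CPM ± 30.1 (1.40 times). In group 9 it was 213 CPM ± 38.6 and 293 CPM ± 20.2 (1.38 times). In group 1, nearly all *hoxb1b*, it was 118 CPM ± 12.7 and 154 CPM ± 23.8 (1.31 times). In each of groups 1, 5 and 9, 4 of 5 spt_cMO libraries lay above the control range.

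Groups between these differed less. The sums were 10.4 CPM ± 1.62 and 10.6 CPM ± 1.79 in group 2 (1.02 times), 39.8 CPM ± 7.85 and 42.3 CPM ± 6.76 in group 6 (1.06 times) and 206 CPM ± 10.5 and 214 CPM ± 18.5 in group 8 (1.04 times). In groups 4 and 7 they were 1.27 and 1.16 times higher in spt_cMO, with overlap. Across the 23 tested genes, which come from the same libraries and are not independent, paralog number and log2 fold change had a Spearman's rho of 0.107 and a Pearson's r of 0.198, a description only. These values leave out group 10, and of the 12 genes numbered 11 to 13 only 2 entered, none of them from group 11. They therefore say little about the 5′ ends.

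**Figure D5:**
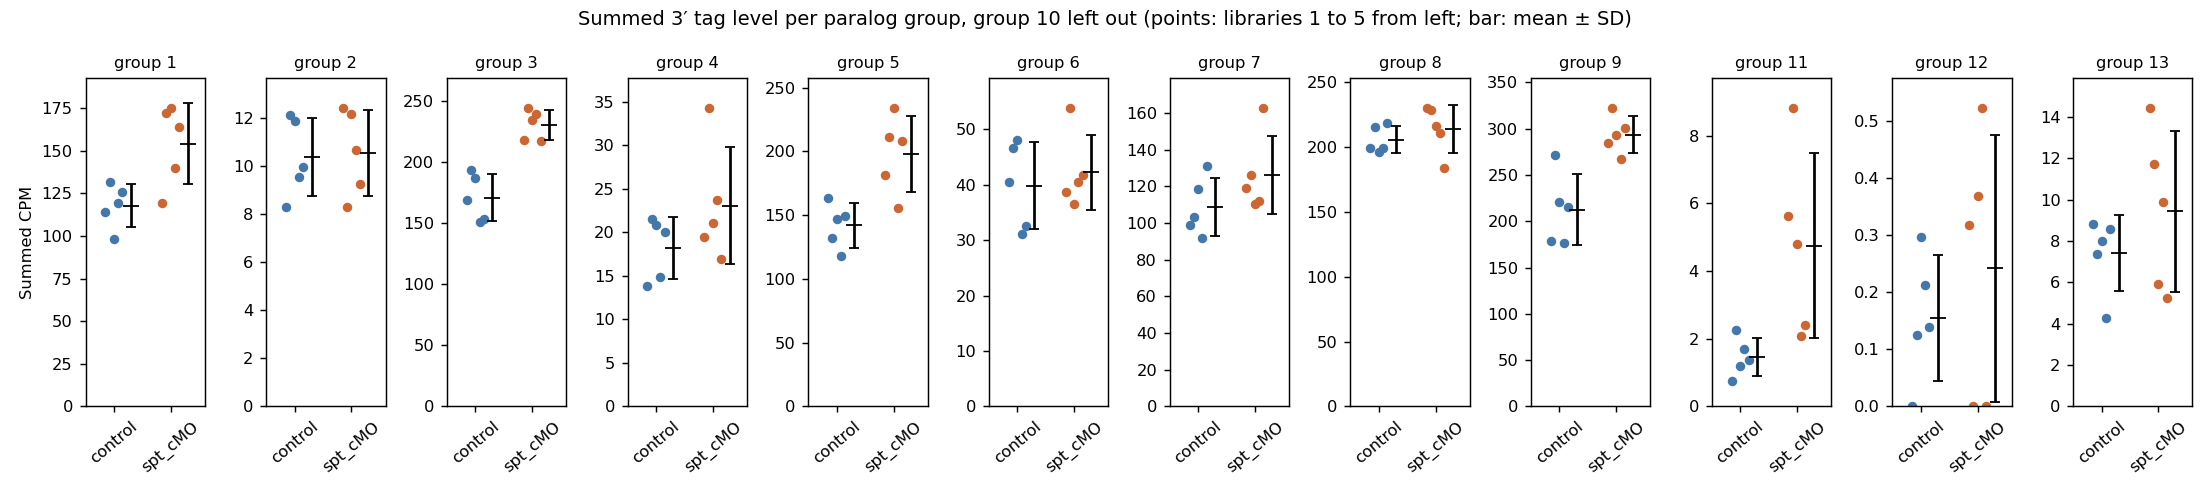
Summed TMM-scaled CPM of each paralog group in each library (points, libraries 1 to 5 from left), with mean and SD. The points of group 3, mostly *hoxc3a*, do not overlap. Those of groups 1, 5 and 9 overlap by 1 spt_cMO library, and groups 2, 6 and 8 have nearly equal means.

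The group 11 genes together were at 0.756, 2.25, 1.19, 1.70 and 1.38 CPM in control and at 5.62, 8.81, 4.80, 2.09 and 2.41 CPM in spt_cMO, with 4 of 5 spt_cMO libraries above the control range. All of these genes were untested, and part of the control values lay within the 0.32 to 1.47 CPM of 3 counts. Group 13 was at 7.41 CPM ± 1.85 and 9.44 CPM ± 3.90, with wide overlap. The group 10 genes, which lie in 4 of the same clusters, had log2 fold changes of 0.68 (*hoxb10a*), 1.22 (*hoxc10a*) and 0.87 (*hoxd10a*), and these 3 passed (edgeR adjusted p = 0.0085, 6.8e-05 and 0.0432). Whether they differ from the other hox genes was not tested.

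The authors' deposited table, made with edgeR, listed 27 of the 43 genes. It called 8 of them higher (29.6%, where 1.83% of its 6923 records were higher) and 0 lower (1.75% of its records). Its scores are likelihood ratios, and its log2 fold changes came within 0.0492 of a model with group and replicate number. The nearer counterpart here is therefore the fit with the block, which called 5 higher. In the authors' deposited table the 8 were *hoxa9b*, *hoxa13b*, *hoxb5a*, *hoxb6a*, *hoxb5b*, *hoxc3a*, *hoxd3a* and *hoxd9a*, of which *hoxa9b* and *hoxb6a* were not tested here. Its highest log2 fold changes among them were 1.42 for *hoxa13b*, 1.34 for *hoxa9b* and 1.33 for *hoxb6a*, with adjusted p of 0.00641, 0.00697 and 0.0389 in the authors' deposited table. Its records were those with CPM above 2 in 5 libraries, a filter that 1 group alone can meet. The means of these 3 genes were 2.04, 1.61 and 1.35 CPM in control and 5.38, 3.96 and 3.32 CPM in spt_cMO. For them that filter favoured a higher value in spt_cMO, and the share called includes them.

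Genes that lie next to the clusters but are not hox genes were read for comparison. Taking the 3 nearest with a record on each side of each cluster gave 42 genes, of which 28 were tested. None passed edgeR's test without the block, in either direction (0.807% of all records were higher and 0.974% lower); at an unadjusted p under 0.05, 3 were higher and 2 lower (4.6% and 4.84% of all records), and DESeq2 called 1 lower (*calcoco1a*; 1.31% of all records). Their median log2 fold change was -0.06, with a positive value in 9 of 28. *skap1* was higher without overlap (2.88 to 3.88 CPM in control, 3.92 to 8.04 CPM in spt_cMO; 1.43% of all records). *ift52* was lower without overlap (81.3 to 97.25 CPM in control and 67.5 to 79.6 CPM in spt_cMO, where 1.63% of all records were). *eve1*, an even-skipped homeobox gene beside the 5′ end of hoxba, was at 236 CPM ± 27.8 in control and 298 CPM ± 46.8 in spt_cMO (log2 fold change 0.34, SE 0.12, edgeR adjusted p = 0.225). *calcoco1a*, beside hoxca, was at 7.38 CPM ± 3.55 and 2.66 CPM ± 0.496 (-1.44, SE 0.36; edgeR adjusted p = 0.0511, with the block 0.00889), and on the 3′ side of hoxbb *skap1* was at 0.74 (SE 0.26, adjusted p = 0.254). *lnpa*, beside hoxda, was at 89.2 CPM ± 4.39 and 88.9 CPM ± 9.96.

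Among regulators and cofactors of hox genes, *cyp26a1* rose and *meis1b* fell. Of a list of 40 genes, 37 had a record and 24 were tested, and 22 of these did not pass (0.807% of all records were higher and 0.974% lower), with a median log2 fold change of -0.07. *cyp26a1*, whose enzyme breaks down retinoic acid, an inducer of 3′ hox genes, rose 1.71-fold, with 669 CPM ± 64.2 in control and 1146 CPM ± 133 in spt_cMO (0.78 on the log2 scale, SE 0.10, edgeR adjusted p = 0.000151). *meis1b*, a homeodomain partner of Hox proteins, fell with -0.80 (SE 0.18, edgeR adjusted p = 0.0315), a call kept without control library 4 or spt_cMO library 2 and lost without each of the other 8 (adjusted p up to 0.105). *aldh1a2*, whose enzyme makes retinoic acid, was at 105 CPM ± 28.0 and 57.5 CPM ± 20.4 (-0.90, SE 0.24, edgeR adjusted p = 0.116). It passed as lower with the block (edgeR adjusted p = 0.0164). Of the 24 tested genes DESeq2 called 1 higher, *cyp26a1* (1.25% of all records). It called 3 lower, *meis1b*, *aldh1a2* and *cdx4* (1.31% of all records).

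The caudal genes, which activate trunk and tail hox genes, did not pass edgeR's test. As given above, DESeq2 called *cdx4* lower (1.31% of all records). *cdx4* was at 4036 CPM ± 282 in control and 3367 CPM ± 225 in spt_cMO (log2 fold change -0.26, SE 0.09, edgeR adjusted p = 0.21), far above any hox gene. Its control libraries were at 3796 to 4475 CPM and its spt_cMO libraries at 3051 to 3671 CPM, without overlap (1.63% of all records were lower without overlap), and it was higher in spt_cMO in 0 of 5 pairs. The level of *cdx1a* was 992 CPM ± 92.0 and 923 CPM ± 102 (-0.10, SE 0.10). The Pbx partner gene *pbx4* was at 469.8 CPM ± 56.6 and 478 CPM ± 84.2 (0.03, SE 0.12). *ezh2*, the methyltransferase of the Polycomb complex that keeps hox clusters silent, was at 166 CPM ± 10.3 and 157 CPM ± 10.5 (-0.08, SE 0.09).

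Hox genes are also active in neural tissue, so markers of other tissues were read in the same libraries. Of 9 neural markers 8 were tested and 1, *sox2*, rose (log2 fold change 0.83, edgeR adjusted p = 0.00019), where 0.807% of all records were higher. *zic2a* had a value in the other direction (157 CPM in control and 103 CPM in spt_cMO, log2 fold change -0.62, SE 0.24, edgeR adjusted p = 0.376), and *sox3* and *sox19a* were at 0.07 and 0.00. Their summed level was 400.9 to 595 CPM in control and 446 to 593 CPM in spt_cMO, and none was at 0. Of 3 tested notochord and axial markers 1, *shha*, rose (0.807% of all records were higher), with 1.81 CPM in control and 6.23 CPM in spt_cMO. The call was lost without control library 4 or spt_cMO library 1 or 3 (adjusted p up to 0.0673). Its control libraries were at 0.415 to 3.27 CPM and its spt_cMO libraries at 3.62 to 8.86 CPM. It thus met the filter of 2.55 CPM through the spt_cMO group, which favoured a higher value there. *noto* was at 0.47 (SE 0.34) and *foxa2* at -0.23 (SE 0.20), and neither passed. The summed level of these markers was 19.1 to 35.7 CPM in control and 20.4 to 41.3 CPM in spt_cMO.

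None of the tested markers of epidermis and enveloping layer (8), endoderm (3), lateral and blood mesoderm (2) or germ cells (3) passed edgeR's test or DESeq2. By edgeR 0.807% of all records were higher and 0.974% lower, and by DESeq2 1.25% and 1.31%. At an unadjusted p under 0.05, 1 marker was lower (*gata2a*), where 4.84% of all records were. The summed levels of these markers in control and spt_cMO were 264 to 466 and 345 to 620.0 CPM for epidermis, with 1 of 2 *tp63* records at 0, and 80.0 to 134 and 88.9 to 149 CPM for endoderm. For lateral and blood mesoderm they were 583 to 1384 and 333 to 913 CPM, and for germ cells 37.0 to 65.5 and 22.5 to 52.4 CPM. The lateral and blood sum was mostly *gata2a* and so mainly follows that gene. In that list *tal1*, *lmo2* and *gata1a* were untested, at 0.516, 2.05 and 0.0474 CPM over all libraries. The calls of *tbxta* and *her1* in the presomitic list were lost without most single libraries (adjusted p up to 0.148 without spt_cMO library 1 and 0.132 without spt_cMO library 4). The part of these markers in the hox values was not tested.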

How the data were processed

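RNA was counted by CEL-seq in 10 libraries, 5 per group. The authors deposited raw read counts per RefSeq record. Alignment was to Zv8 with the submitters' CEL-seq scripts in Galaxy, as the design text states, and the counter and its use of strand are not given in the sources used here. The authors also deposited their comparison, with log2 fold changes, likelihood ratio scores, p-values and adjusted p-values, made with edgeR per the submitters' processing notes. An edgeR model with group and replicate number came within 0.0492 of every log2 fold change in it, and one with group alone within 0.485.

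RefSeq's table of GRCz12tu genes gave symbols and gene order (13986 of 14720 records matched; the rest held 1.4% to 1.62% of counts and stayed in). Counts were tested in R 4.3.3 with edgeR 4.0.16: filterByExpr (minimum count 10), TMM scaling, robust quasi-likelihood test, 2-sided, Benjamini-Hochberg over 6570 records. CPM is TMM-scaled, mean ± SD; standard errors come from the F statistic. The fit was tested on simulated data. DESeq2 1.42.0, other scalings and filters, thinning, a replicate block and leaving out each library were alternatives.

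Same-numbered libraries deviated together from their group means over all tested records (correlations 0.135, 0.251, 0.119, 0.203 and 0.147, all above the 0.1 set for calling them paired), so blocked values are printed where they change a call. The standard errors, and edgeR values not marked as blocked, come from the fit without the block, which leaves this pairing out. The labels do not say what a number shares.

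Every tested hox gene is named. Values per library are given for genes called with or without the block, for genes without overlap and for the most counted gene of each cluster; a few others were chosen after their values were seen. The members and lists were chosen with earlier results of these data known. Intervals and floors from counts cover counting error only.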

Additional observations from a re-analysis of the deposited data

Results flagged for a closer look

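Within groups of 5 libraries, 3 values stood far from the other 4, and all 3 were in spt_cMO replicate 2, the library with the fewest counts. *hoxa13b* was at 10.8 CPM there and between 2.95 and 4.88 CPM in the other 4. *hoxb3a* was at 52.4 CPM there and between 33.4 and 37.3 CPM in the others. The summed CPM of the hoxda cluster was 145 there and between 79.3 and 94.1 in the others. With 60 groups of values checked, chance flags about 1 in 20, or 3, if the groups were independent. They share libraries, and the cluster sums share genes, so that rate is only a guide. Why all 3 fell in spt_cMO replicate 2 was not tested. Without that library the log2 fold change of *hoxa13b* was 1.08, that of *hoxb3a* 0.15 and the log2 ratio of hoxda 0.62.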

How the results depend on the processing

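The number of hox genes called higher was 1 of 23 tested, and it was 5 with the replicate block and 5 with DESeq2 (1.25% of all records). With no filter on low counts it was 6 of the 42 genes with a count (0.577% of all records). It ranged from 0 to 2 when each library was left out in turn, with 0 without control replicate 5 (0.543% of all records) and 2 without control replicate 3 (0.716% of all records). The 1 gene called was *hoxb5b* without control replicate 1 or spt_cMO replicate 4 (0.694% and 0.733% of all records). Without control replicate 4 or spt_cMO replicate 3 it was *hoxd3a* (0.604% and 0.598%). In the other omissions with a call, *hoxc3a* was called. DESeq2 and the block called the same 5 genes; with no filter they were *hoxa13b*, *hoxa9b*, *hoxb5b*, *hoxc3a*, *hoxd11a* and *hoxd3a*. Thinned to equal depth in 1 random draw, the 1 gene called by edgeR was *hoxb5b* (adjusted p = 0.023), and *hoxc3a* missed (0.0671). *hoxa13b* and *hoxa2b* were not tested there. No alternative called a hox gene lower, and the block changed no call of a tested hox gene beyond those given in the report. At least 1 count was found for 42 genes, where 23 were tested.

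Signs near 0 changed. *hoxb2a* was at -0.014 with no filter, -0.021 with the replicate block, -0.031 when thinned, and between -0.111 and 0.076 without single libraries; *hoxb8b* was at -0.048 to 0.327 and *hoxc4a* at -0.173 to 0.079 without single libraries. Without its most counted gene, hoxab had a log2 ratio of 1.33 (0.84 with it) and hoxca 0.42 (0.29 with it). The cause of these changes was not tested. Depth limits the 5′ genes: 3 counts make 1.47 CPM in the shallowest library.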
